A study of Mus musculus with 18 samples.

Results

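Whether a tumour line was epithelial or mesenchymal, and whether sildenafil moved it, was read from 10 identity genes, taken by symbol from the 55450 genes of the deposited count table. Cdh1, Epcam, Krt8 and Krt18 mark epithelial cells, Cdh2 and Vim mark mesenchymal cells, and Snai1, Snai2, Zeb1 and Zeb2 encode transcription factors that act between these states. Each symbol had 1 row. RNA was sequenced in 18 libraries from 3 wild-type mouse cancer lines grown in culture, LLC (Lewis lung carcinoma), MC38 (colon adenocarcinoma) and 4T1 (breast carcinoma). Each line gave 3 libraries of cells under 100 µM sildenafil citrate, which blocks the phosphodiesterase PDE5, and 3 libraries of control cells under the solvent DMSO. LLC cells were exposed for 48 h, and MC38 and 4T1 cells for 24 h. LLC and MC38 were grown in DMEM and 4T1 in RPMI 1640, with serum in both media. A difference between 4T1 and another line therefore cannot be told apart from a difference in medium. Likewise, one between LLC and another line cannot be told apart from a difference in time. The labels do not say whether the 3 libraries of a group are separate cultures, so the p-values speak only of the spread among libraries, and that spread may be technical.

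Epithelial cells are held together by E-cadherin, the product of Cdh1, and carry a cytoskeleton of keratins, which assemble as pairs of a type II chain such as keratin 8 and a type I chain such as keratin 18. In the epithelial-mesenchymal transition, cells lose E-cadherin and keratins and gain N-cadherin (Cdh2) and vimentin (Vim). The Snail-family factors (Snai1, Snai2) and the ZEB factors (Zeb1, Zeb2) repress Cdh1 and other epithelial genes by binding E-box sequences in their promoters. Carcinoma lines often hold a mixture of both programmes.

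Library totals ran from 26348654 to 32129771 counts in LLC, 29438187 to 36417399 in MC38 and 41070021 to 61600646 in 4T1, so the same level is measured most precisely in 4T1. Levels are given as CPM (counts scaled to library size, with TMM factors over all 18 libraries), with the SD over 3 libraries. LLC control replicate 3 stood apart from the other LLC controls. Its chi-square per degree of freedom against them was 44.6 and 53.0, while other pairs of libraries of a group gave 2.87 to 15.5. The noncoding transcript Gm26917 differed in mean level between treatment groups, at 8910 CPM under sildenafil and 19983 CPM in control LLC, 5682 and 11718 CPM in MC38, and 252 and 156 CPM in 4T1. The groups did not overlap in MC38 or 4T1. They did in LLC, at 5850 to 13764 CPM under sildenafil and 9657 to 29454 CPM in control. The overlap came from LLC control replicate 3 (9657 CPM), the library that stood apart. The other LLC controls had 29454 and 20838 CPM. The labelled tissues were checked by their markers. In LLC, 8 of 10 lung epithelial markers were at 0 in both groups, Nkx2-1 and Sftpc among them, and Napsa alone exceeded 1 CPM. In MC38 the intestinal factors Cdx1 and Cdx2 were at 0, and 2 of 10 colon markers exceeded 1 CPM, Cdh17 among them. In 4T1, 4 of 10 mammary markers exceeded 1 CPM, led by Gata3 at 78.7 CPM under sildenafil and 60.6 CPM in control, while Elf5, Csn2 and Wap were at 0.

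The promoters of 3 epithelial members are shown because these genes differed strongly between lines, and because the ZEB and Snail factors bind the E-box. The windows are from RefSeq on GRCm38.p6, 250 bases before to 50 bases after the gene start, 5′ to 3′ on the strand of the gene. They lie at chr15:102004293-102004592 on the minus strand (Krt8), chr15:102027966-102028265 on the plus strand (Krt18) and chr17:87635729-87636028 on the plus strand (Epcam). Capitals mark the E-box letters CACCTG or its reverse complement CAGGTG.
Krt8: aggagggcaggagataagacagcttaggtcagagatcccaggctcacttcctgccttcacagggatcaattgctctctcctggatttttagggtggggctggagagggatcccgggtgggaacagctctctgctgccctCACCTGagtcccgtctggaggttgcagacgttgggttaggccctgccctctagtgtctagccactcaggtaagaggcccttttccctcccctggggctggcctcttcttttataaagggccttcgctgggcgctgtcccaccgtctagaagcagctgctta
Krt18: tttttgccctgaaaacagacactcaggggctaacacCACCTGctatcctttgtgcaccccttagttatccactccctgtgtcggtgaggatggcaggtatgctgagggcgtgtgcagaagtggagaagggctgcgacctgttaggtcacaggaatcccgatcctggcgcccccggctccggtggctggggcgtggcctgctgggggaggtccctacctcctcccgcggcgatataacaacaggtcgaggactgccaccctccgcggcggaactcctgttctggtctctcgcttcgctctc
Epcam: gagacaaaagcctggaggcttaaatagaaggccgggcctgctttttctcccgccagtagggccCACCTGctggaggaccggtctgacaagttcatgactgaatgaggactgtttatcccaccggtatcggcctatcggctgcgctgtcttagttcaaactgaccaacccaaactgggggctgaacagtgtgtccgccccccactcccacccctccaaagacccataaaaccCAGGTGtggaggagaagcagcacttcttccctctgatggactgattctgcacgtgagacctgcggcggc
The Krt8 window holds the motif once, 111 bases before the RefSeq start, and the Krt18 window once, 214 bases before the RefSeq start. For these 2 genes the RefSeq start differs from that of the GENCODE M21 annotation, used for all other positions. The annotated Krt8 gene begins farther upstream, at 102004482, and covers this motif. The Epcam window holds it at 187 and at 19 bases before the start. Of the other members with a window in the table, Snai1 holds the motif once and Vim and Zeb2 hold none. Of 32851 windows of this length, 6640 hold at least 1 such motif (20.2%), so a match by itself is common and shows no binding. Krt8 and Krt18 are neighbours on chromosome 15, with 23697 bases between the starts of the genes as annotated in GENCODE M21.

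In control cells, 4T1 alone carried the epithelial adhesion genes. Cdh1 (chromosome 8, 106603351 to 106670246) was listed at 0 in each LLC control library. It had 0.649, 0.536 and 0.510 CPM in MC38 controls and 429, 425 and 426 CPM in 4T1 controls. The level was 755-fold lower in MC38 than in 4T1 (95% counting interval 573 to 1018, from 50 counts against 62676) and at least 12496-fold lower in LLC than in 4T1, with a floor of 3 counts over the group. Such intervals and floors cover counting error only. Epcam (chromosome 17, 87635979 to 87651129), which encodes an epithelial surface adhesion protein, was at 0 in all 12 LLC and MC38 libraries, whether treated or not. It had 54.5, 56.9 and 54.7 CPM in 4T1 controls. Epcam was thus at least 1625-fold lower in LLC and at least 1637-fold lower in MC38 than in 4T1. In bulk RNA, fewer cells of a kind and less RNA per cell cannot be told apart, so these levels do not say whether a few cells carry Cdh1 in MC38.

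The keratin pair came apart between lines. Krt8 (chromosome 15, 101996698 to 102004482) was high in every library. Controls had 205, 203 and 228 CPM in LLC, 2524, 2587 and 2527 CPM in MC38, and 725, 771 and 762 CPM in 4T1. Krt8 was called lower in LLC than in 4T1 (log2 fold change -1.83 ± 0.045, SE, n = 3 each) and higher in MC38 than in 4T1 (1.76 ± 0.045), with no overlap between lines. Its partner Krt18 (chromosome 15, 102028180 to 102032027) was at 0 in all LLC libraries. It had 0.547, 0.569 and 0.238 CPM in MC38 controls, against 810, 834 and 807 CPM in 4T1 controls. The level of Krt18 was 1811-fold lower in MC38 than in 4T1 (counting interval 1330 to 2535) and at least 23974-fold lower in LLC than in 4T1. The line with the most Krt8 RNA therefore had almost no Krt18 RNA. Per kb of exon, Krt8 stood at 3336 to 7795 times Krt18 in MC38 controls and at 0.657 to 0.693 times Krt18 in 4T1 controls. In LLC controls, where Krt18 had no count, Krt8 was at least 4557 times Krt18 per kb.

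No other type I keratin took the place of Krt18 in LLC or MC38. This sum over keratins was chosen after their values were seen, and it carries no test. Type I keratins together had 0.338 ± 0.172 CPM per kb under sildenafil and 0.124 ± 0.024 in control LLC cells. In MC38 the type I sum was 1.61 ± 0.098 under sildenafil and 2.02 ± 0.210 in control, and in 4T1 it was 517 ± 14.0 under sildenafil and 595 ± 9.96 in control. Type II keratins summed to 95.1 ± 1.72 under sildenafil and 108 ± 7.21 CPM per kb in control LLC cells, 1088 ± 42.5 and 1308 ± 18.1 in MC38, and 363 ± 8.52 and 494 ± 15.1 in 4T1. Krt8 made up 99.4% to 99.5% of the type II sum in MC38 under sildenafil and 99.4% in control, and 80.8% to 82.1% in 4T1 under sildenafil and 77.7% to 78.0% in control. The remainder in 4T1 was mostly Krt7, a type II keratin of simple epithelia, at 428 ± 23.2 CPM under sildenafil and 695 ± 21.4 CPM in control. Reads shared with pseudogene copies are divided between them by the counting tool. The annotated copy Krt8-ps had at most 9 counts in an LLC library, 55 in an MC38 library and 149 in a 4T1 library. The noncoding Gm36026, which overlaps Krt8 on the other strand, had 2.79 to 3.36 CPM under sildenafil and 1.76 to 2.73 CPM in control LLC cells, and less than 1 CPM in the other lines.

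**Figure D1:**
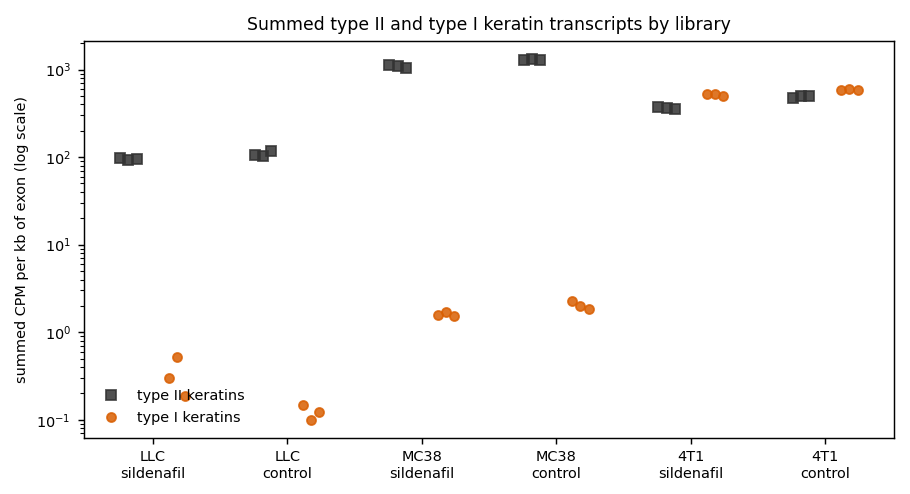
Summed CPM per kb of exon (log axis) of type II keratins (squares) and type I keratins (circles) in each of the 18 libraries, with sildenafil left of control in each line. In 4T1 the sums lie close together, at 517 (type I) and 363 (type II) under sildenafil, while in LLC and MC38 the type I sum lies far below the type II sum.

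Vimentin did not separate the lines in the way the cadherins did. Vim (chromosome 2, 13573927 to 13582826) had 1976, 1996 and 2194 CPM in LLC controls, 4065, 4200 and 4116 CPM in MC38 controls, and 2411, 2420 and 2351 CPM in 4T1 controls. The Cdh1-carrying line thus carried Vim RNA at a level between those of LLC and MC38. Vim was called higher in MC38 than in 4T1 (0.79 ± 0.042) and lower in LLC than in 4T1 (-0.22 ± 0.041, adjusted p = 3.8e-05 by edgeR). The LLC call was lost when genes under 5 CPM were left out (-0.076, adjusted p = 0.0672). Cdh2 (chromosome 18, 16588877 to 16809246) marked LLC alone, at 47.5, 53.6 and 53.3 CPM in controls. It had 3, 2 and 0 counts in MC38 control libraries and none in any 4T1 library. Cdh2 was at least 2520-fold higher in LLC than in 4T1 and 911-fold higher in LLC than in MC38 (counting interval 390 to 2806, from 4521 against 5 counts). MC38 had therefore almost no RNA of either cadherin.

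The 4 repressors divided between the lines member by member. Snai1 was highest in 4T1, the line that carries Cdh1. It had 1.32, 0.991 and 1.09 CPM in LLC controls, 4.68, 3.88 and 4.15 in MC38 controls, and 15.3, 12.6 and 14.7 in 4T1 controls. It was called lower in LLC than in 4T1 (-3.64 ± 0.129), lower in MC38 than in 4T1 (-1.74 ± 0.105) and lower in LLC than in MC38 (-1.89 ± 0.148). Snai2 ran the other way, at 29.2, 24.2 and 17.8 CPM in LLC controls, 8.23, 8.84 and 7.99 in MC38 controls, and no count in any 4T1 library. It was at least 1158-fold higher in LLC and at least 409-fold higher in MC38 than in 4T1. Zeb1 followed Snai2, at 64.5, 66.0 and 61.8 CPM in LLC controls, 27.4, 28.1 and 27.0 in MC38 controls, and 0.260, 0.294 and 0.117 in 4T1 controls. The 4T1 controls held 34 Zeb1 counts in all, which put the level 277-fold higher in LLC than in 4T1 (counting interval 198 to 400) and 119-fold higher in MC38 than in 4T1 (84.8 to 172).

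Zeb2 broke the pattern of its paralog. It had 85.98, 88.9 and 79.9 CPM in LLC controls, 20.2, 21.4 and 19.8 in MC38 controls, and 72.1, 74.6 and 72.1 in 4T1 controls. Zeb2 was called lower in MC38 than in 4T1 (-1.84 ± 0.053) and slightly higher in LLC than in 4T1 (0.22 ± 0.047). The Cdh1-carrying line thus carried Zeb2 RNA near the level of the Cdh2-carrying line, with Zeb1 at the edge of detection. Zeb2os, antisense to Zeb2, had at most 1.61 CPM in a library.

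The length used per kb is that of all annotated exons of a gene merged, 4.743 kb for Vim, 10.266 kb for Zeb1 and 19.942 kb for Zeb2. It may exceed the length of the transcript made, so the orders below depend on this choice and are not a ranking of transcript numbers. Set beside each other per kb of exon in controls, Vim (433) was highest in LLC, followed by Krt8 (108), Snai2 (11.7), Cdh2 (6.38), Zeb1 (6.24), Zeb2 (4.26) and Snai1 (0.700). Cdh2 and Zeb1 differed by less than their SDs, which were 0.426 and 0.208 CPM per kb. In MC38 the order was Krt8 (1300), Vim (870), Snai2 (4.13), Zeb1 (2.68), Snai1 (2.61) and Zeb2 (1.02), where Zeb1 and Snai1 lay within the SD of Snai1 (0.250). In 4T1 it was Krt18 (568), Vim (505), Krt8 (384), Cdh1 (93.2), Epcam (25.2), Snai1 (8.75) and Zeb2 (3.66). Several members passed the expression filter only through the line where they were high, so no share of all 10 called is read from this. Of members that passed it in both lines compared, 5 of 5 were called between LLC and 4T1, 6 of 6 between MC38 and 4T1, and 6 of 6 between LLC and MC38. Over all 16040 genes tested, 87% were called between LLC and 4T1, 84.8% between MC38 and 4T1, and 77% between LLC and MC38. A call between these lines is therefore common, and the sizes above carry the description.

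**Figure D2:**
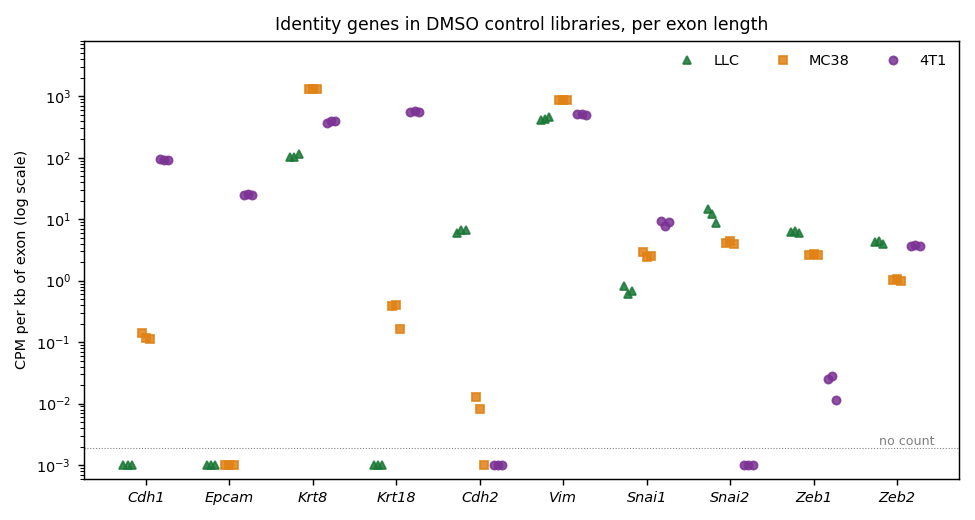
CPM per kb of exon (log axis) of the 10 identity genes in the 9 control libraries, 3 of LLC (triangles), 3 of MC38 (squares) and 3 of 4T1 (circles), with libraries without a count drawn below the dotted line. Cdh1, Epcam and Krt18 are high in 4T1 alone, Cdh2 in LLC alone, Snai2 and Zeb1 in LLC and MC38, and Krt8 and Vim in every line.

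Other genes of the same programmes were taken from 5 lists. Of 37 epithelial junction and keratin genes, 9 had a mean of at least 1 CPM in LLC controls, 11 in MC38 controls and 32 in 4T1 controls. Krt7 had no count in LLC controls, 1.97 ± 0.192 CPM in MC38 controls and 695 ± 21.4 CPM in 4T1 controls. Spint2, an inhibitor of epithelial serine proteases, was at 0.011, 0 and 179 CPM in the same order. Of 18 epithelial transcription and splicing factors, 4 had at least 1 CPM in LLC controls, 4 in MC38 controls and 13 in 4T1 controls. Grhl2, a factor that maintains epithelial genes, had 0.011 ± 0.020 CPM in LLC, 0.113 ± 0.070 in MC38 and 41.2 ± 1.58 in 4T1 controls. Esrp1, the epithelial splicing regulator, was at 0 in LLC and MC38 controls and at 35.7 ± 0.498 CPM in 4T1 controls; it was named after its values were seen.

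Of 26 mesenchymal adhesion, cytoskeleton and matrix genes, 14 reached 1 CPM in LLC controls, 16 in MC38 controls and 13 in 4T1 controls. Fgfr1, a growth factor receptor, had 146 ± 20.2 CPM in LLC, 98.5 ± 4.80 in MC38 and 0.169 ± 0.106 in 4T1 controls. The matrix proteoglycan gene Vcan had 76.0 ± 8.24, 70.4 ± 7.15 and 0.152 ± 0.034 CPM in that order. Nt5e went the other way, at 1.68 ± 0.198 CPM in LLC, 0.214 ± 0.102 in MC38 and 228 ± 3.20 in 4T1 controls. Among other transcription factors of the transition, Prrx1 had 3.18 ± 0.472 CPM in LLC, 61.3 ± 1.72 in MC38 and 0.028 ± 0.030 in 4T1 controls, and Sox4 had 0, 17.2 ± 0.699 and 114 ± 1.62. All 17 cadherin binding partners and Snail-family cofactors exceeded 1 CPM in every line.

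Sildenafil changed some identity genes in each line. Of 7 members tested in LLC, 2 rose (Cdh2, Snai1) and 1 fell (Krt8), where 27.3% of 13561 genes tested were called, 15.1% higher and 12.2% lower. In MC38, of 7 members tested, 1 rose (Zeb2) and 2 fell (Krt8, Vim), where 37.8% of 13363 genes were called, 19.5% higher and 18.3% lower. In 4T1, of 8 members tested, 2 rose (Epcam, Vim) and 4 fell (Cdh1, Krt8, Krt18, Snai1), where 66.7% of 13914 genes were called, 33.5% higher and 33.3% lower. A member is called at an adjusted p under 0.05 by edgeR's quasi-likelihood test with Benjamini-Hochberg adjustment over all genes tested in its line. With 7 or 8 members tested, these counts stand near those shares. The median log2 change of the tested members was 0.020 in LLC, -0.25 in MC38 and -0.076 in 4T1, beside -0.0062, 0.0040 and 0.0023 over all genes. Scaling holds the median over all genes near 0, and the member median pools genes of both identities, so neither gives a direction. The median absolute log2 change over all genes was 0.17 in LLC, 0.15 in MC38 and 0.29 in 4T1. All called members exceeded it in LLC and MC38, but in 4T1 Krt8 alone did. Members under the filter were Cdh1, Epcam and Krt18 in LLC, Epcam, Krt18 and Cdh2 in MC38, and Cdh2 and Snai2 in 4T1. None of these appeared under sildenafil, the highest sum being 25 Krt18 counts in MC38, against 40 counts in control.

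**Figure D3:**
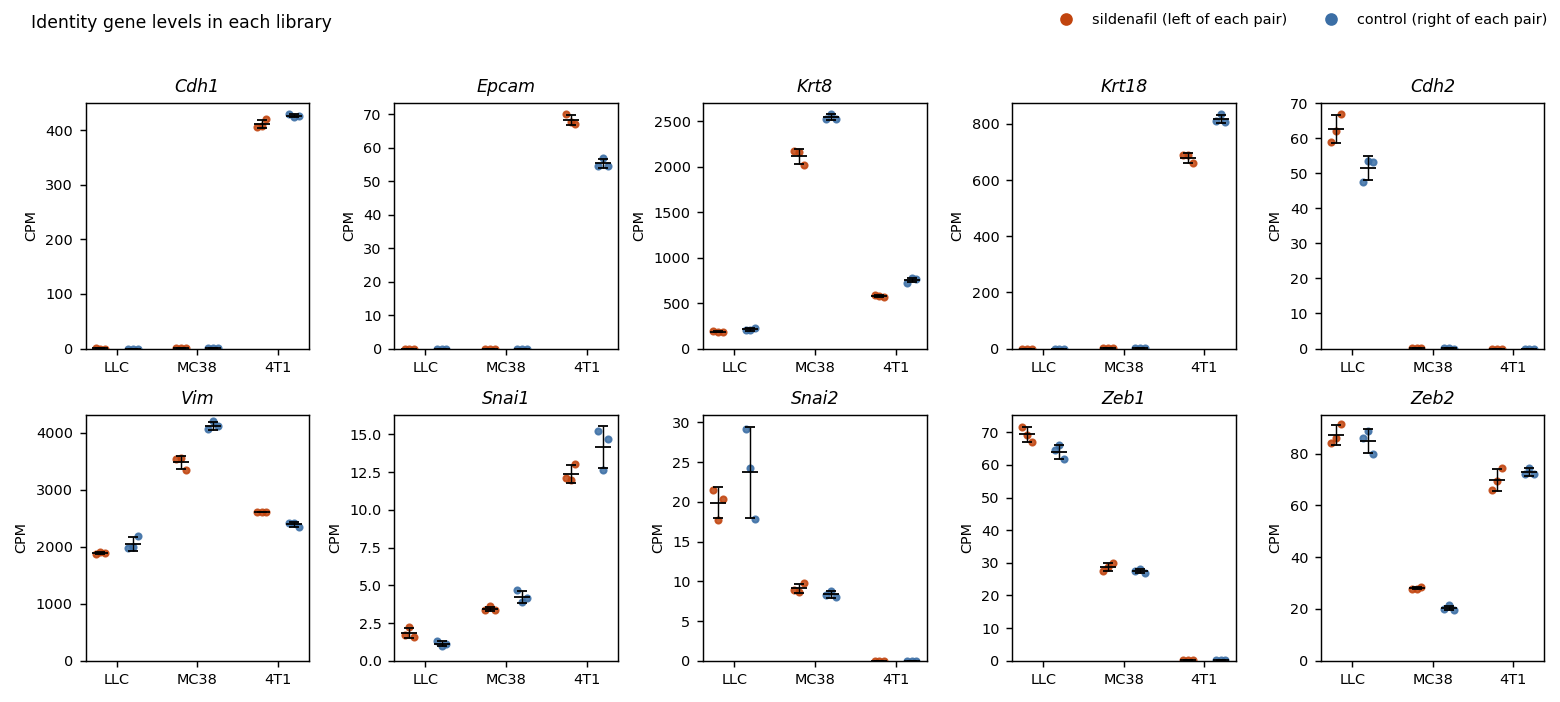
CPM of each identity gene in each of the 18 libraries (points) with the mean and SD of the 3 libraries of a group (bars), sildenafil left of control in each line. Krt8 lies lower under sildenafil in all 3 lines without overlap, while Vim lies higher in 4T1 and lower in MC38.

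Krt8 was called in every line, always lower under sildenafil. In LLC it had 189, 182 and 187 CPM under sildenafil, against 205, 203 and 228 CPM in control (log2 fold change -0.21 ± 0.052, adjusted p = 0.0164). In MC38 it had 2169, 2162 and 2022 CPM under sildenafil, against 2524, 2587 and 2527 CPM in control (-0.27 ± 0.032, adjusted p = 9.69e-06). In 4T1 it had 587, 577 and 568 CPM under sildenafil, against 725, 771 and 762 CPM in control (-0.40 ± 0.031, adjusted p = 8.54e-08). The groups did not overlap in any line. In LLC the call was lost without sildenafil replicate 2 (adjusted p = 0.0888) or sildenafil replicate 3 (0.0757). Krt18 fell in 4T1, the line that carries it, to 688, 689 and 660 CPM under sildenafil, against 810, 834 and 807 CPM in control (-0.29 ± 0.029, adjusted p = 1.27e-06). Krt8 per kb stood at 0.614 to 0.632 times Krt18 in 4T1 under sildenafil and at 0.657 to 0.693 times in control.

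Other keratins of 4T1 moved in both directions. Krt7 fell there (-0.72 ± 0.039, adjusted p = 2.43e-09), while the type I keratin Krt19 rose to 72.0 ± 4.26 CPM under sildenafil, against 40.4 ± 2.81 CPM in control (0.81 ± 0.052, adjusted p = 2.1e-08). Both responses were singled out after their values were seen. Krt7 also fell in MC38, at 1.17 ± 0.161 CPM under sildenafil and 1.97 ± 0.192 CPM in control (-0.76 ± 0.186, adjusted p = 0.00454).

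The epithelial adhesion genes, measurable in 4T1, went in different directions. Epcam rose to 70.0, 67.8 and 67.0 CPM under sildenafil, against 54.5, 56.9 and 54.7 CPM in control (0.28 ± 0.035, adjusted p = 7.12e-06). Its groups did not overlap. Cdh1 in 4T1 had 406, 407 and 420 CPM under sildenafil, against 429, 425 and 426 CPM in control. That is a fall of 4.81% (-0.071 ± 0.028, adjusted p = 0.0394), and the call was lost when any of 5 of the 6 libraries was left out (adjusted p up to 0.133), with no expression filter (0.114) and with the 5 CPM filter (0.166). In MC38, Cdh1 had 9, 11 and 11 counts under sildenafil, against 19, 16 and 15 in control (-0.78 ± 0.334, adjusted p = 0.0788), which did not pass the test.

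The mesenchymal markers also parted by line. Cdh2 rose in LLC to 58.8, 62.1 and 66.8 CPM under sildenafil, against 47.5, 53.6 and 53.3 CPM in control (0.26 ± 0.063, adjusted p = 0.0136). The groups did not overlap, but the call was lost without control replicate 1 (adjusted p = 0.0541), sildenafil replicate 2 (0.0506) or sildenafil replicate 3 (0.0731). Vim fell in MC38 to 3549, 3553 and 3356 CPM under sildenafil, against 4065, 4200 and 4116 CPM in control (-0.25 ± 0.031, adjusted p = 1.72e-05). Vim rose in 4T1 to 2609, 2604 and 2612 CPM under sildenafil, against 2411, 2420 and 2351 CPM in control (0.11 ± 0.028, adjusted p = 0.00503). In LLC it had 1878, 1906 and 1895 CPM under sildenafil, against 1976, 1996 and 2194 CPM in control, and did not pass the test (-0.14 ± 0.059, adjusted p = 0.108).

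Some markers of other cells moved in the same libraries. The summed level of 10 fibroblast markers ran from 2210 to 2248 CPM under sildenafil and 1147 to 1180 CPM in control LLC cells, mostly Col3a1 at 2000 and 1044 CPM, with Fap at 0 in both groups. The sum was 1127 to 1148 CPM under sildenafil and 1219 to 1252 CPM in control MC38 cells, and 100 to 113 and 50.7 to 56.8 CPM in 4T1. Pdgfra led the 4T1 sum, at 53.9 CPM under sildenafil and 27.5 CPM in control, while Col3a1 and Lum were at 0. Of fibroblast markers tested, 4 of 4 rose in LLC. In MC38, 2 of 7 rose and 3 fell, and in 4T1, 2 of 4 rose and 1 fell. Over all genes tested, 15.1% rose in LLC, 19.5% in MC38 and 33.5% in 4T1, and 12.2%, 18.3% and 33.3% fell. The 15 leukocyte markers summed to 4.75 to 5.66 CPM under sildenafil and 2.68 to 3.21 CPM in control LLC cells, 10.0 to 10.8 and 6.12 to 6.63 CPM in MC38, and 81.8 to 88.9 and 34.8 to 35.8 CPM in 4T1. In each group only 2 of these 15 markers had a mean of at least 1 CPM. The T cell genes Cd3e and Cd8a were at 0 in every group, and Cd74, at 46.7 CPM under sildenafil and 25.5 CPM in control, led the 4T1 sum. The 8 endothelial markers summed to at most 2.45 CPM in any library. Whether other cells had a part in the Vim and Cdh2 values was not tested.

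Among the repressors, Zeb2 gave the largest well-measured change. In MC38 it rose to 27.8, 27.9 and 28.5 CPM under sildenafil, against 20.2, 21.4 and 19.8 CPM in control (0.46 ± 0.050, adjusted p = 4.02e-06). Every sildenafil library lay above every control. The antisense Zeb2os had 0.393 to 0.428 CPM under sildenafil and 0.033 to 0.103 CPM in control MC38 cells, a small part of the Zeb2 difference. In LLC, Zeb2 had 84.2, 86.1 and 91.4 CPM under sildenafil and 85.98, 88.9 and 79.9 CPM in control (0.020 ± 0.054, adjusted p = 0.811). In 4T1 it had 66.0, 69.3 and 74.5 CPM under sildenafil and 72.1, 74.6 and 72.1 CPM in control (-0.080 ± 0.045, adjusted p = 0.131). Without 4T1 sildenafil replicate 3 the 4T1 value became a called fall (-0.13, adjusted p = 0.00171). Zeb1 passed the test in no line, with changes of 0.096 ± 0.051 in LLC, 0.062 ± 0.048 in MC38 and 0.13 ± 0.386 in 4T1, the last from 42 counts under sildenafil and 34 in control.

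Snai1 is a low transcript, with 27 to 65 counts in an LLC library and 575 to 779 in a 4T1 library. In LLC it had 51, 65 and 51 counts under sildenafil, against 39, 27 and 34 in control, or 1.73, 2.23 and 1.58 CPM against 1.32, 0.991 and 1.09 CPM. It rose (0.68 ± 0.207, adjusted p = 0.0362 by edgeR), but the call was lost with DESeq2 (adjusted p = 0.0745), with limma-voom (0.0501) and without any of 4 libraries (control replicate 2 and each sildenafil replicate, adjusted p up to 0.137). In 4T1, Snai1 had 12.1, 12.01 and 13.1 CPM under sildenafil and 15.3, 12.6 and 14.7 CPM in control (-0.22 ± 0.073, adjusted p = 0.0183). There the groups overlapped, and leaving out any of 4 libraries (control replicates 1 and 3, sildenafil replicates 1 and 2) lost the call (adjusted p up to 0.0916). In MC38 it had 3.33, 3.61 and 3.40 CPM under sildenafil and 4.68, 3.88 and 4.15 CPM in control (-0.30 ± 0.123, adjusted p = 0.0664).

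Snai2 passed the test in neither line that carries it. It had 8.96, 8.61 and 9.73 CPM under sildenafil and 8.23, 8.84 and 7.99 CPM in control MC38 cells (0.12 ± 0.086, adjusted p = 0.288). In LLC it had 21.5, 17.8 and 20.4 CPM under sildenafil and 29.2, 24.2 and 17.8 CPM in control (-0.27 ± 0.192, adjusted p = 0.331). The lowest of these controls is the library that stood apart, and without it the LLC difference was called (-0.44, adjusted p = 0.00385).

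**Figure D4:**
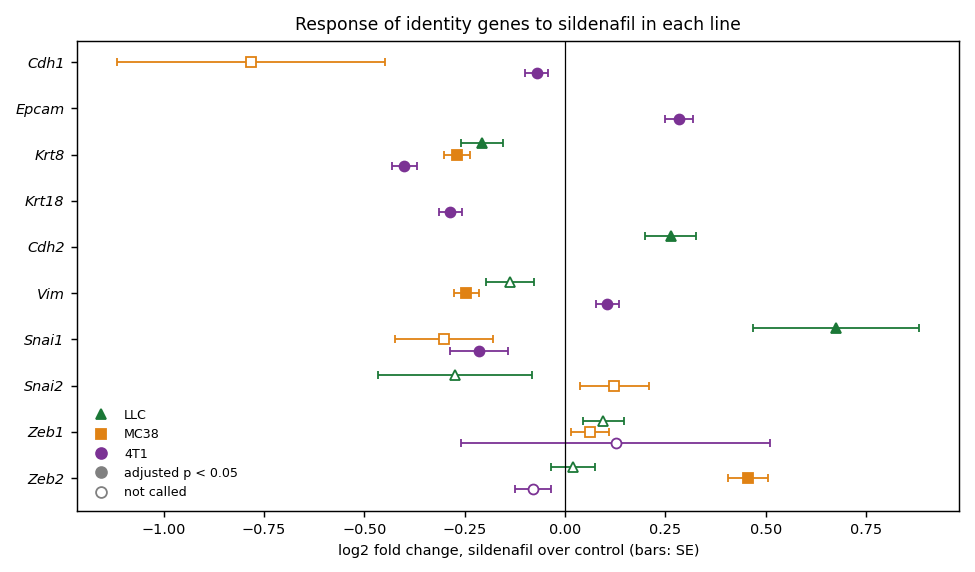
Log2 fold change of each identity gene for sildenafil over control with its SE (bars) in LLC (triangles), MC38 (squares) and 4T1 (circles), filled where the adjusted p is under 0.05 and left out where the gene was not tested. Krt8 lies below 0 in all 3 lines, and Zeb2 in MC38 (0.46) and Snai1 in LLC (0.68) lie farthest above 0.

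The difference between responses was tested on all 18 libraries, for members that passed the filter in both lines. These comparisons share their groups pairwise and are not independent of each other. Between LLC and 4T1, 3 of 5 members were called (Krt8, Vim, Snai1), where 42% of 16040 genes were. Between MC38 and 4T1, 2 of 6 were called (Vim, Zeb2), where 34.6% of genes were. Between LLC and MC38, 2 of 6 were called (Snai1, Zeb2), where 22.3% of genes were. For Vim, which fell in MC38 and rose in 4T1, the MC38 change was the lower (difference of log2 changes -0.37 ± 0.059, adjusted p = 2.9e-05). For Zeb2, which rose in MC38 and did not pass the test in 4T1, the MC38 change was the higher (0.52 ± 0.073, adjusted p = 5.22e-06). The Krt8 fall was smaller in LLC than in 4T1 (0.19 ± 0.062, adjusted p = 0.0146), and its difference between MC38 and 4T1 was not called (0.12 ± 0.061, adjusted p = 0.159).

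Adding Gm26917 as a covariate ended many of these calls. In LLC the Cdh2 value became 0.16 (adjusted p = 0.128) and the Snai1 value 0.75 (0.0955), which lost their calls, while the Vim fall was gained (-0.20, 0.0241) and Krt8 stayed called (-0.26). In MC38, Vim at -0.25 (0.0686) and Zeb2 at 0.40 (0.0923) lost their calls, and Krt8 stayed called (-0.29, 0.0367). In 4T1, 0 of 6 member calls were left, with Epcam at 0.27 (0.534), Krt8 at -0.32 (0.365), Krt18 at -0.14 (0.717), Vim at 0.054 (0.905), Cdh1 at -0.19 (0.573) and Snai1 at -0.61 (0.449). The log2 level of Gm26917 itself went with treatment, with a squared correlation of 0.463 in LLC, 0.854 in MC38 and 0.969 in 4T1. In 4T1 its level and the treatment thus cannot be told apart, and in MC38, where its groups did not overlap either, they hardly can. A call lost with the covariate in these lines does not by itself show a smaller change. Vim in MC38 was -0.25 both with and without it.

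In LLC, of 10 epithelial junction and keratin genes tested, 1 rose and 4 fell (median -0.14), with the laminin receptor subunit Itga6 at 109 ± 3.58 CPM under sildenafil and 189 ± 9.90 CPM in control (-0.82 ± 0.052, adjusted p = 8.97e-06). F11r, a tight junction adhesion molecule, rose to 30.2 ± 1.43 CPM under sildenafil, against 18.9 ± 0.779 CPM in control (0.66). Pkp3, a desmosomal plaque protein, fell (-0.39). In this list 2 fell with the 5 CPM filter, with the Gm26917 covariate or without sildenafil replicate 3. Of 15 mesenchymal genes tested, 3 rose and 1 fell (median -0.061). Vcan rose to 190 ± 5.13 CPM under sildenafil, against 76.0 ± 8.24 CPM in control (1.3 ± 0.075, adjusted p = 9.22e-06), and the collagenase gene Mmp14 to 151 ± 6.70, against 98.4 ± 1.21 CPM (0.60). Fgfr1 rose as well (0.41). Without LLC control replicate 3, 5 mesenchymal genes rose and 4 fell. Of 4 epithelial transcription and splicing factors 1 fell (Klf5, -0.51), and of 14 other factors 1 rose (Smad3, 0.42) and 2 fell (Runx1, -0.56, and Hmga2, -0.51). Of 17 binding partners and cofactors, 2 rose and 3 fell, among them alpha-catenin (Ctnna1, 0.23), afadin (Afdn, -0.39) and vinculin (Vcl, -0.38). Over all genes tested in LLC, 15.1% rose and 12.2% fell. Several of these calls rested on single libraries. Klf5 was lost without sildenafil replicate 2 (adjusted p = 0.0627), and Fgfr1 and Runx1 were lost without control replicate 2 or any sildenafil replicate (adjusted p up to 0.0659 and 0.0882), Runx1 also with no expression filter (0.0575). Without control replicate 3, 7 binding partners and 4 other factors fell. With the Gm26917 covariate 0 epithelial factors fell, and 2 other factors rose.

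In MC38, of 17 binding partners and cofactors tested, 0 rose and 8 fell (median -0.093), where 19.5% of all genes tested rose and 18.3% fell. Vcl, which links adhesion complexes to actin, fell to 680 ± 9.68 CPM under sildenafil, against 957 ± 26.1 CPM in control (-0.50 ± 0.029, adjusted p = 4.22e-09). Usp10 (-0.27) and Eed (-0.20) fell too. By limma-voom, with the 5 CPM filter, over protein-coding genes alone, with the replicate block or without sildenafil replicate 3, 1 of these genes rose, and with the Gm26917 covariate 2 fell. Of 17 epithelial junction and keratin genes tested, 3 rose and 6 fell (median -0.057), with Pkp3 (-0.46), Itga6 (-0.25) and Pkp2 (-0.22) changing most. By DESeq2 1 rose, with the 5 CPM filter 3 fell, and with the Gm26917 covariate 0 rose and 0 fell (adjusted p of 0.132, 0.19 and 0.321 for these 3 genes). Of 6 epithelial factors 1 rose, Klf4 (0.49), at 44.4 ± 1.28 CPM under sildenafil and 31.5 ± 0.536 CPM in control. Of 17 mesenchymal genes, 5 rose and 4 fell (median -0.0037), and 2 fell without control replicate 3, sildenafil replicate 1 or sildenafil replicate 2. The integrin gene Itgb3 rose (0.73 ± 0.065, adjusted p = 5.12e-07). Fgfr1 rose (0.28), as it did in LLC. Of 18 other factors, 4 rose and 6 fell, with Foxc2 (0.33), Ets1 (-0.29) and Sox4 (0.25) changing most. With the covariate 2 mesenchymal genes rose and 1 fell, and 0 other factors rose and 1 fell.

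In 4T1, of 35 epithelial junction and keratin genes tested, 19 rose and 5 fell (median 0.22), where 33.5% of all genes tested rose and 33.3% fell. With the Gm26917 covariate 5 rose and 1 fell, and Prss8 (adjusted p = 0.325) and Jup (0.314) lost their calls. The epithelial protease gene Prss8 rose to 18.3 ± 0.920 CPM under sildenafil, against 8.84 ± 0.540 CPM in control (1.03 ± 0.064, adjusted p = 8.97e-09). Jup, which encodes plakoglobin of desmosomes and adherens junctions, rose to 121 ± 10.0 CPM under sildenafil, against 59.0 ± 0.698 CPM in control (1.02 ± 0.053). Cd24a, a surface glycoprotein gene, rose to 169 ± 3.93 CPM, against 87.7 ± 2.46 CPM in control (0.93). Of 14 epithelial factors, 7 rose and 5 fell (median 0.16), with Rbm47 (0.79) and Elf3 (0.66) higher and Klf5 lower, at 105 ± 3.32 CPM under sildenafil and 172 ± 2.1 CPM in control (-0.73). With the covariate 0 of these factors rose and 1 fell.

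Of 14 mesenchymal genes tested in 4T1, 7 rose and 5 fell (median 0.12), and with the Gm26917 covariate 1 rose and 0 fell. S100a4 rose to 505 ± 34.9 CPM, against 310 ± 3.68 CPM in control (0.68), and Mmp14 rose (0.56), as in LLC. Of 17 other factors, 5 rose and 9 fell (median -0.13), with the AP-1 subunit gene Fosl1 at 76.8 ± 2.79 CPM under sildenafil and 165 ± 1.32 CPM in control (-1.12 ± 0.034, adjusted p = 1.29e-11). Sox9 (0.73) and Sox4 (0.68) rose. Of 17 binding partners and cofactors, 4 rose and 9 fell (median -0.072), with Usp10 (-0.60), the Polycomb subunit gene Eed (-0.44) and the deacetylase gene Hdac2 (-0.31) changing most. With the covariate 0 other factors rose and 4 fell, and 0 binding partners rose and 1 fell.

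The genes whose levels followed Cdh1 and Zeb1 most closely were looked for among 11539 genes, by Pearson correlation of log2(CPM + 1) over the 18 libraries. The libraries form 3 clusters, so these values describe differences between 3 lines. For Cdh1 the closest genes were Proser2, Shtn1 and Rem2 (r of at least 0.999). Shtn1 had 0.056 CPM in LLC, 0.802 in MC38 and 124 in 4T1 controls. For Zeb1 the closest were Eid2, Gypc and Pla2g5 (r of at least 0.999), of which Gypc had 23.3, 12.8 and 0 CPM in LLC, MC38 and 4T1 controls.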

How the data were processed

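RNA was measured in 18 libraries. The authors deposited expected counts per gene, and the submitters' processing notes name RSEM 1.3.1, STAR 2.7.0f, cutadapt 1.18 and bcl2fastq 2.17 with build mm10. Strand setting and annotation release: not given in the sources used here. Reads of overlapping genes may thus be mixed. Counts were rounded. All 55450 identifiers matched GENCODE M21, the source of positions and exon lengths. An exon length counts all annotated exons of a gene, merged where they overlap. Genes were tested with edgeR 4.0.16 in R 4.3.3 (TMM, default filter with a minimum count of 10, robust quasi-likelihood F test, Benjamini-Hochberg threshold 0.05), within each line for sildenafil and on all 18 libraries between lines. SE is the log2 fold change divided by the square root of F. Alternatives were DESeq2 1.42.0, limma-voom 3.58.1, RLE factors, other filters, protein-coding genes alone, a replicate block, a Gm26917 covariate, the libraries of 2 lines alone and each library left out. The scripts were tested on simulated counts with set changes. Of the calls made there, 6.58% were wrong in LLC, 9.76% in MC38 and 7.69% in 4T1, each above the 0.05 aimed for. Of 1.3-fold changes, 58.2% were recovered in LLC, 58.2% in MC38 and 75.8% in 4T1. For the difference of response between MC38 and 4T1, 2.25% of calls were wrong. That test recovered 28.8% of 1.3-fold and 51.5% of 2-fold changes.

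The 10 members, the lists and the tests were chosen with earlier results of these data known. Beside all members, the text names per list and line the 3 called genes of at least 5 CPM with the largest change, the 3 genes with the largest difference between control groups, and the 3 genes most like Cdh1 and Zeb1. Some are given in part, and some are not reported here. Replicate numbers were not taken to pair libraries. Plots were drawn with matplotlib 3.10.9.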

Additional observations from a re-analysis of the deposited data

Results flagged for a closer look

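The response to sildenafil differed between lines for 4 identity genes, by the test of the difference itself on all 18 libraries (edgeR, adjusted over 16040 genes, n = 3 libraries per group). For Vim the difference of log2 changes was -0.37 in MC38 against 4T1 (adjusted p = 2.9e-05) and -0.24 in LLC against 4T1 (adjusted p = 0.00171). For Zeb2 it was 0.52 in MC38 against 4T1 (adjusted p = 5.22e-06) and -0.42 in LLC against MC38 (adjusted p = 0.000208). For Snai1 it was 0.89 in LLC against 4T1 (adjusted p = 0.000554) and 0.99 in LLC against MC38 (adjusted p = 0.00117), although the Snai1 rise within LLC was lost under several alternatives. For Krt8 it was 0.19 in LLC against 4T1 (adjusted p = 0.0146). LLC was treated for 48 h and the other lines for 24 h, so line and time cannot be told apart in the LLC differences.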

How the results depend on the processing

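Over the members, 881 values were recomputed under alternatives. Of these, 836 kept their side of the threshold, 34 lost a call and 11 gained one. The values pool the large differences between control cells and the differences of response with the tests of sildenafil. All lost calls except Vim between LLC and 4T1 controls were of sildenafil within a line, so the pooled count overstates how steady those calls were. The sign changed for 0 values called with all libraries and for 11 not called, of Zeb1 in 4T1 and its differences of response and of Snai2 and Zeb2 in LLC. With the Gm26917 level as a covariate, calls fell to 2252 genes in LLC, 939 genes and 1 member in MC38, and 700 genes and 0 members in 4T1. In 4T1 the same covariate turned Sox9 (-0.10, adjusted p = 0.913) and Sox4 (-0.019, adjusted p = 0.977). Leaving out single libraries gave 1841 (without sildenafil replicate 3) to 5994 (without control replicate 3) called genes in LLC, against 3702 with all, and 0 (without sildenafil replicate 2 or 3) to 4 called members. It gave 2 to 5 members whose response differed between LLC and MC38, the 5 without LLC control replicate 3, when Krt8 (0.14, adjusted p = 0.0483), Vim (0.18, 0.00513) and Snai2 (-0.55, 0.00328) were added. Calls gained elsewhere were Vim in LLC with the covariate (-0.20, adjusted p = 0.0241), Snai1 in MC38 over protein-coding genes (0.0461), and differences of response for Cdh1 (limma-voom 0.0398, 5 CPM filter 0.0482) and Krt8 (0.038, 12 libraries alone) between MC38 and 4T1 and for Snai2 between LLC and MC38 (no filter, 0.0378).

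Same-numbered libraries did not deviate together in every pair (correlations of -0.14 to 0.288 in LLC, 0.0672 to 0.266 in MC38 and -0.0673 to 0.105 in 4T1). With the replicate block, 4078 genes and 3 members were called in LLC, 5867 and 3 in MC38, and 9090 and 5 in 4T1, where Cdh1 lost its call (adjusted p = 0.0662). Scaling by RLE moved no median by more than 0.1. Counts per library were 27 to 65 for Snai1 in LLC, 5 to 19 for Zeb1 in 4T1, and 9 to 19 for Cdh1 and 6 to 17 for Krt18 in MC38, and depth limits the precision there.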
